A study of Mus musculus with 4 samples.

Results

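The Msx and Dlx homeobox genes were examined in ATAC-seq peak lists of sorted mouse palate mesenchyme. ATAC-seq uses a transposase to mark open DNA, and a peak is a stretch where such marks were called enriched. The 8 genes are Msx1, Msx2, Dlx1, Dlx2, Dlx3, Dlx4, Dlx5 and Dlx6. Peaks of the 4 libraries were merged where they shared at least 1 bp, and a merged region belonged to a gene when that gene was the nearest protein-coding gene within 100 kb of its midpoint. Of 39843 regions in all, 18 belonged to these genes, and they lay at 6 of the 8.

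The 2 mutant libraries came from Shox2Cre/- embryos and the 2 control libraries from Shox2Cre/+ embryos, all at E14.5. Both genotypes were also Nkx2.5F/F and carried R26RmTmG, a reporter that turns green once Cre has acted. Cre was expressed from Shox2, a homeobox gene of the anterior palate, so the sorted green cells are the Shox2 lineage, and the controls kept 1 intact Shox2 allele. The sample titles call the controls WT, but their floxed Nkx2-5 alleles could be cut in the same cells. For each group 50000 cells were pooled, and nothing says that libraries of a group came from separate embryos, so the spread between them may be technical. In such pools, fewer cells with an open region and less opening per cell cannot be told apart.

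Msx and Dlx proteins are homeodomain transcription factors that bind similar AT-rich DNA sites. Msx1 and Msx2 are expressed in craniofacial mesenchyme downstream of bone morphogenetic proteins, and mice without Msx1 have a cleft palate. The Dlx genes sit in pairs whose members are transcribed towards each other, with shared enhancers between them. Dlx1 and Dlx2 act in the upper jaw, Dlx5 and Dlx6 give the lower jaw its identity, and Dlx3 and Dlx4 are known for roles in placenta and, for Dlx3, in skin, hair and teeth.

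Promoter windows from RefSeq (GRCm38.p6, the assembly of mm10) were found for 4 of the 8 genes. They are shown because these are the members whose start sites could be placed within the peaks. The window of Gm20052, a long noncoding RNA gene, is added because the distal region of Msx1 lies on it. Each window runs 5′ to 3′ on the strand of its gene, from 250 bases before the start site through the first 50 bases of the transcript. Capitals mark matches on either strand to 5 short strings. TAATTA is a core of homeodomain sites, and so is the variant that ends in another base, TAATTG. The others searched were the CCAAT element, the TATA box as TATAAA, and the GC box as GGGCGG. The windows are chr5:37824536-37824835 (minus strand) for Msx1, chr5:37893522-37893821 (plus) for Gm20052, chr13:53472731-53473030 (minus) for Msx2, chr2:71529195-71529494 (plus) for Dlx1 and chr2:71546705-71547004 (minus) for Dlx2.
Msx1: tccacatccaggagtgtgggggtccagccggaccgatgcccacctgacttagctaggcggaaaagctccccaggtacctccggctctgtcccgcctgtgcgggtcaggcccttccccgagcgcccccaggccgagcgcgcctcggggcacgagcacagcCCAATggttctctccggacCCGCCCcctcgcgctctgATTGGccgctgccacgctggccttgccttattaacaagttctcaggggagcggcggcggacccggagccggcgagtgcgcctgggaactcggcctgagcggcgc
Gm20052: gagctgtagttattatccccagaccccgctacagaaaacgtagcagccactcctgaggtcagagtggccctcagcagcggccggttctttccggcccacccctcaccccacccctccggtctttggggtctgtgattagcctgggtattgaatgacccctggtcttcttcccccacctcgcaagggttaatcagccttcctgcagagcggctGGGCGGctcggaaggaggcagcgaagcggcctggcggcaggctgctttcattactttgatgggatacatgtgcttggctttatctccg
Msx2: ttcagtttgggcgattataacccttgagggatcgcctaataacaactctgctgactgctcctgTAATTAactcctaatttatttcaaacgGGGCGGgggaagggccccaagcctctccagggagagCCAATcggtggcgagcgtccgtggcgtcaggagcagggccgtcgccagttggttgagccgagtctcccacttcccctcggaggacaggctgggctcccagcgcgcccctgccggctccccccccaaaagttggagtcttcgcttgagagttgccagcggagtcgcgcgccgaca
Dlx1: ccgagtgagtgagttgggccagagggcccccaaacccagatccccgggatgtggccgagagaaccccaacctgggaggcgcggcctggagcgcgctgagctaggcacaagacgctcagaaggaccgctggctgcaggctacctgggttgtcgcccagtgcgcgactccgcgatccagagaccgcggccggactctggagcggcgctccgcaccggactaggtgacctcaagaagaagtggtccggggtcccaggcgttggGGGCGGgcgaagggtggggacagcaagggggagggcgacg
Dlx2: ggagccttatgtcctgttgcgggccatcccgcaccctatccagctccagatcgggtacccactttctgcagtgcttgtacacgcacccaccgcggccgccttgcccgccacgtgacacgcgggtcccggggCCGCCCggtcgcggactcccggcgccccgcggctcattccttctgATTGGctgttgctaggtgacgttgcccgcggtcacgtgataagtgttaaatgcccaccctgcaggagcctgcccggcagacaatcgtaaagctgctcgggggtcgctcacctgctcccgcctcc

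Among these windows the Msx2 promoter held a homeodomain core. Its TAATTA began at position −187 from the start site, and such a match is present in 5.29% of the 32851 promoter windows of that table. TAATTG, present in 2628 of the windows, and TATAAA, present in 13.6%, had 0 matches in the 5 windows. CCAAT, present in 37.4% of all windows, was found at Msx1 (at −91 and −54), Msx2 (−124) and Dlx2 (−74). GGGCGG, present in 35.7%, was found in every printed window, at −72 in Msx1, −38 in Gm20052, −160 in Msx2, 11 in Dlx1 and −119 in Dlx2. No 2 matches overlapped. GC content was 70.0% at Msx1, 59.3% at Gm20052, 61.0% at Msx2, 69.3% at Dlx1 and 66.3% at Dlx2, against a median of 52.7% over all windows. A match is a string of letters and says nothing of binding.

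A region is called a promoter region when it came within 1 kb of a start site, or of either gene end for Dlx3, Dlx4, Dlx5 and Dlx6, and distal otherwise. Its strength is given as the percentile of its peak score among all peaks of the same library. The score is the authors' value for a single peak and rises with the significance of the call. Of the 18 regions 6 were promoter regions, 1 at each member with regions, and 12 were distal, while promoter regions made up 31.9% of all regions. Of the promoter regions 3 were called in all 4 libraries, those of Msx1, Dlx1 and Dlx2, whereas 84.4% of the promoter regions of all genes were. Of the 12 distal regions 1 was called in all 4 libraries, at Msx1, against 30.1% of all distal regions. Over both kinds this made 4 of 18, against 47.4% of all regions.

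**Figure D1:**
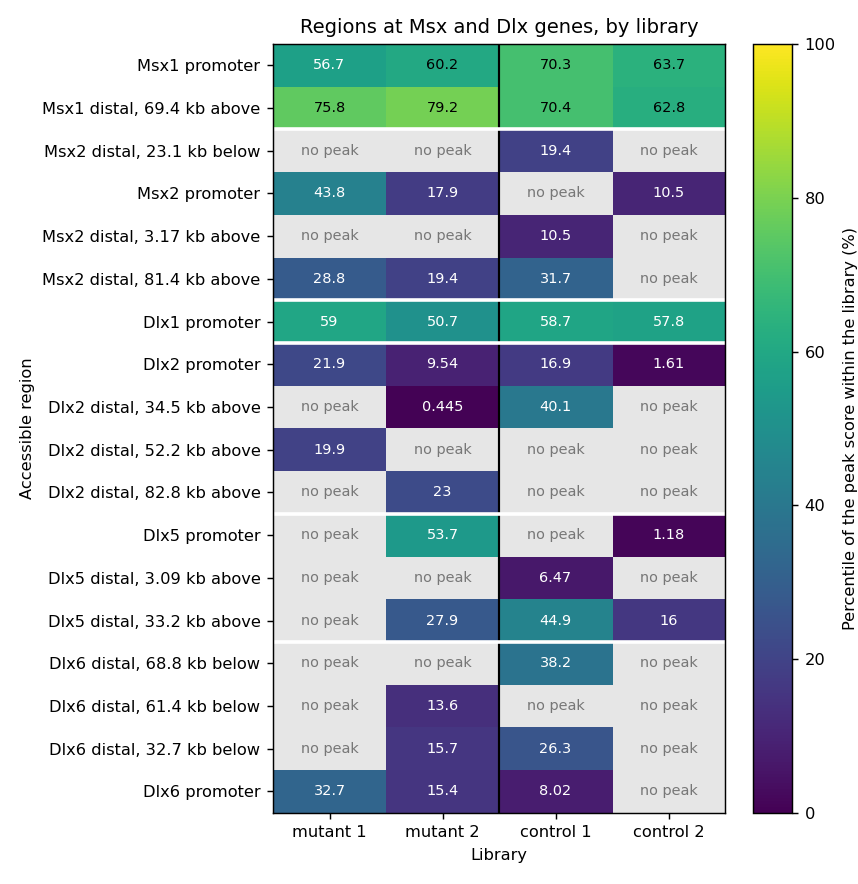
Percentile of the peak score within each library for the 18 regions, by gene (rows) and library (columns, mutants left and controls right of the line). Grey cells had no listed peak, and above or below gives the side of the gene by rising or falling chromosome position. The Msx1 and Dlx1 promoters and the distal region of Msx1 exceed 50 in every library, and most other rows have gaps.

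No region of these genes was held by both libraries of one genotype and neither library of the other. Mutant-only regions, held by both mutants and no control, numbered 0 of 18 (4.47% of all regions), and control-only regions, held by both controls and no mutant, numbered 0 of 18 (1.07% of all regions). With 18 regions, 0 is close to what those shares give. With the 22959 top-ranked peaks of each library the counts were also 0 and 0, against 2.39% mutant-only and 2.14% control-only among all regions. Leaving out 1 library leaves a genotype with a single list and raises both shares over all regions as well. Mutant-only regions of these genes then numbered 2 without mutant 1 (14.7% of all regions), 1 without mutant 2 (11.4%), 2 without control 1 (13.9%) and 1 without control 2 (6.34%). Control-only regions numbered 0 without mutant 1 (2.61% of all regions), 1 without mutant 2 (3.69%), 0 without control 1 (2.81%) and 4 of 18 without control 2 (8.45%). Of the 18 regions 7 were called in 1 library alone, against 23.9% of all regions, and these were all distal. Of the 7, 1 came from mutant 1, 2 from mutant 2 and 4 from control 1. Of all regions called in 1 library alone, 24.1% came from mutant 1, 39.1% from mutant 2, 30.3% from control 1 and 6.39% from control 2. The mutant libraries held 8 and 13 of the 18 regions and the control libraries 13 and 7, so the counts overlapped between genotypes. The libraries with fewer were mutant 1 and control 2, and control 2 was also the shortest list, with 22959 peaks used against 29217 to 31821 in the others.

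A missing call was not shown to be a missing peak. Numbers in the deposited peak names show that peaks were taken out of the lists after calling. The 18 regions had 31 absences in single libraries, and all 31 fell in a stretch from which at least 1 numbered peak had been removed (median 7, highest 15). Removal of peaks was not confined to the surroundings of these genes. Peak numbers ran up to 96508 to 119397 per library, while 22966 to 31832 peaks were listed, and the stretches were 20.8 to 475 kb long. The same share was not computed over all regions. The lists give no read depth, so counting error is unknown. With 2 libraries against 2, an exact permutation test cannot give a two-sided p below 0.333, so genotypes are compared here by values and not by a test.

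**Figure D2:**
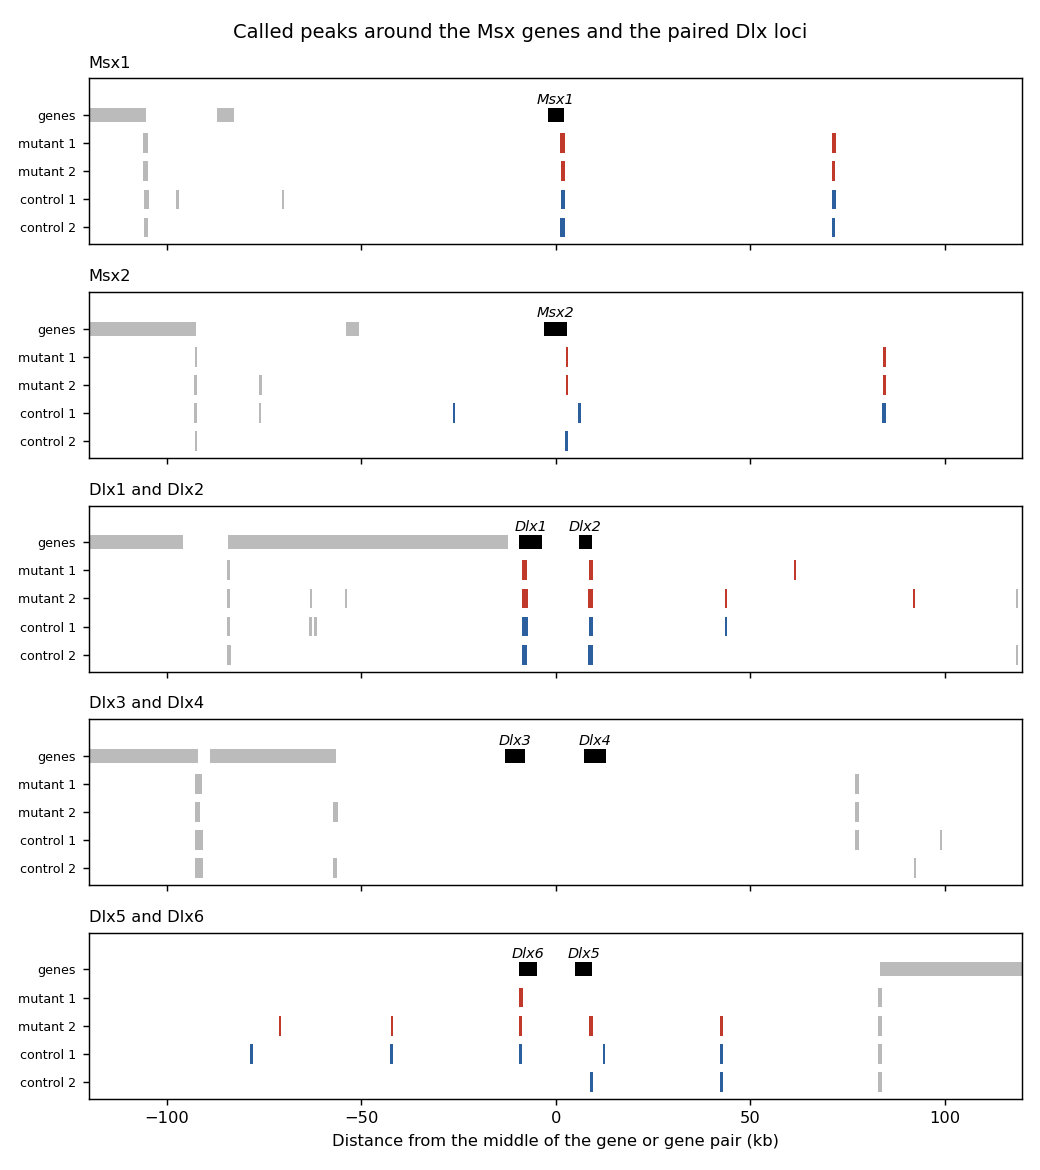
Called peaks in each library around Msx1, Msx2 and the 3 Dlx pairs, by distance from the middle of the gene or pair in kb. Coloured boxes are peaks of the 18 regions (mutants red, controls blue), grey boxes are all other listed peaks and grey bars are other protein-coding genes. Both genes of the Dlx1 and Dlx2 pair carry a peak in every library. The Dlx3 and Dlx4 pair has no listed peak for 133 kb, and no listed peak lies between the genes of any pair.

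Msx1, the gene whose loss gives a cleft palate in mice, held the highest-ranked region of the family in each library. It spans 37820491 to 37824585 on chromosome 5 and had 2 regions, while 33.5% of protein-coding genes had at least as many. Its promoter region (37823608 to 37824933) lay at percentiles 56.7 and 60.2 in the mutants, against 70.3 and 63.7 in the controls. The authors' fold enrichment there was 4.96 and 5.26 in the mutants and 6.14 and 6.05 in the controls. Both mutant values were below both control values on either scale. The score itself, before ranking within a library, was 316 and 349 in the mutants and 495 and 337 in the controls. On that scale the genotypes overlapped, with mutant 2 above control 2. The peak summits lay at −93 and −121 bp from the start site in the mutants and at −92 and −36 bp in the controls, all within the printed window. In mutant 1 the region was listed as 2 peaks of 494 and 765 bp, and in the other libraries as 1 peak, of 886 bp in mutant 2 and of 928 and 1254 bp in the controls.

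The distal region of Msx1 stood the other way. It lay 69.4 kb from the gene (37893479 to 37894528), over the start of Gm20052, whose window shown above was covered for 277 and 300 of its 300 bases by the peaks of the mutants and for 295 and 283 by those of the controls. Its percentiles were 75.8 and 79.2 in the mutants and 70.4 and 62.8 in the controls. Fold enrichment was 7.58 and 8.20 in the mutants and 6.87 and 6.69 in the controls. Both mutant values were above both control values. Among distal regions held by all 4 libraries it was stronger than 84.4% and 86.3% in the mutants and 76.4% and 79.1% in the controls. It counts as distal because only start sites of protein-coding genes were used. Promoter regions held by all 4 libraries had median percentiles of 78.0 and 79.8 in the mutants and 79.0 and 72.4 in the controls. The region lay below that median in each library.

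These were the 2 regions, of the 4 shared by all libraries, whose percentiles did not overlap between genotypes. Over all shared regions both mutants were above both controls in 29.1%, and both controls above both mutants in 5.62%. Percentiles depend on the length of a list, and the cause of that imbalance was not tested. When the 22959 top-ranked peaks of each library were used, the shares over all shared regions were 17.3% with both mutants above and 18% with both controls above. At equal numbers the Msx1 promoter lay at percentiles 44.9 and 44.9 in the mutants, against 61.0 and 63.7 in the controls. The mean difference of −17.4 points exceeded the gaps between libraries of 1 genotype (0.0370 in mutants, 2.75 in controls), and 3.14% of shared regions had a lower one. The distal region lay at 69.2 and 71.2 in the mutants and 61.0 and 62.8 in the controls. Its mean difference was 8.28 points, and 12.0% of shared regions had a higher one.

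Within a library the distal region of Msx1 can be set against the promoter directly. In the whole lists the distal percentile exceeded that of the promoter by 19.05 and 19.01 points in the mutants, while the difference was 0.0711 and −0.926 points in the controls. At equal peak numbers it was 24.2 and 26.3 points in the mutants and 0.0936 and −0.926 in the controls. The 2 regions therefore ranked almost level in both controls and apart in both mutants. A larger difference in both mutants follows from the opposite, non-overlapping directions already given, so it restates those values and is no further result. It was not set against other pairs of promoter and distal regions. This comparison was chosen after the values were seen, among 4 shared regions of the family, and rests on 2 libraries per genotype.

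**Figure D3:**
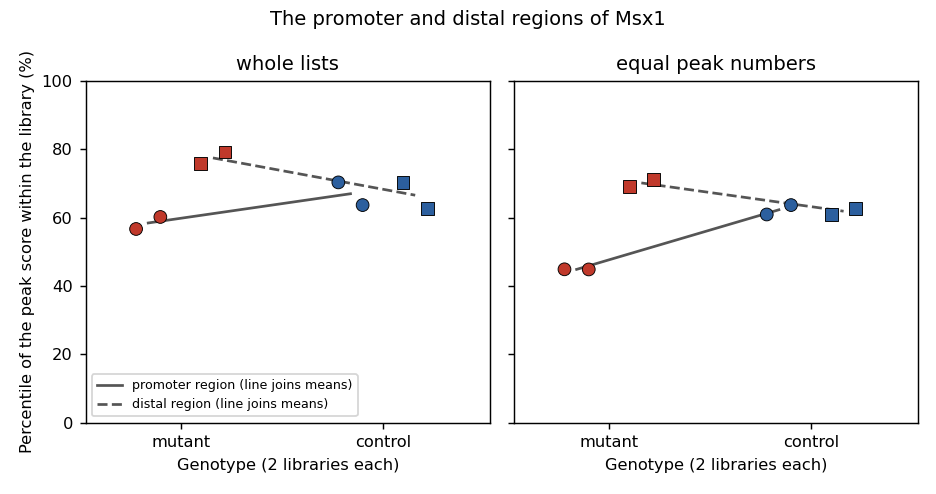
Percentile of the peak score for the Msx1 promoter (circles) and its distal region at 69.4 kb (squares) in the 2 mutant (red) and 2 control (blue) libraries, from whole lists (left) and from 22959 top-ranked peaks per library (right). Lines join the genotype means. In the mutants the promoter lies below the distal region, and in the controls the regions overlap.

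Msx2, the other Msx gene and also a target of bone morphogenetic protein signalling, had 4 weaker regions and 0 in all libraries. It spans 53466881 to 53472780 on chromosome 13. Its promoter region (53472368 to 53473118) was called in both mutants, at percentiles 43.8 and 17.9, and in control 2, at 10.5, and had no listed peak in control 1. The summits lay at −88 and −94 bp from the start site in the mutants and at −32 bp in control 2. Control 1 had 4 numbered peaks removed in the 31.6 kb stretch where this peak would lie. As at Msx1, the summits came before the start site.

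The distal regions of Msx2 were in part those of single libraries. One 81.4 kb away (53553741 to 53554715) had percentiles of 28.8 and 19.4 in the mutants and 31.7 in control 1. Those 23.1 kb and 3.17 kb away were called in control 1 alone, at 19.4 and 10.5. The nearer of these (53475625 to 53476282) overlapped Gm33763, a long noncoding RNA gene that also overlaps the Msx2 promoter region.

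Dlx1 and Dlx2, the pair of the upper jaw, were the pair with promoter regions in all 4 libraries. Dlx1 spans 71528113 to 71533981 on chromosome 2 and had 1 region, over its start (71528689 to 71530395). The percentiles were 59.0 and 50.7 in the mutants and 58.7 and 57.8 in the controls, so the genotypes overlapped. At 1707 bp it was the broadest region of the family, with summits 246 and 340 bp past the start site in the mutants and 153 and 218 bp past it in the controls. At equal peak numbers its values were 47.9 and 31.6 in the mutants and 45.7 and 57.8 in the controls, which also overlapped.

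Dlx2, at 71543408 to 71546754, had one of the weakest shared promoters in these lists. Its promoter region (71545671 to 71547032) lay at percentiles 21.9 and 9.54 in the mutants and 16.9 and 1.61 in the controls, which overlapped. Of the 10727 promoter regions held by all 4 libraries, 1.67% and 0.149% were weaker in the mutants and 0.643% and 0.103% in the controls. The same shares were 21.0% and 10.9% in the mutants and 18.8% and 30.2% in the controls for Dlx1. For Msx1 they were 18.5% and 18.9% in the mutants and 34.5% and 37.5% in the controls. All 3 promoters were thus below the median of their kind in each library, which ran from 72.4 to 79.8. Dlx2 lost its calls in mutant 2 and control 1 when the lists were cut to equal numbers.

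**Figure D4:**
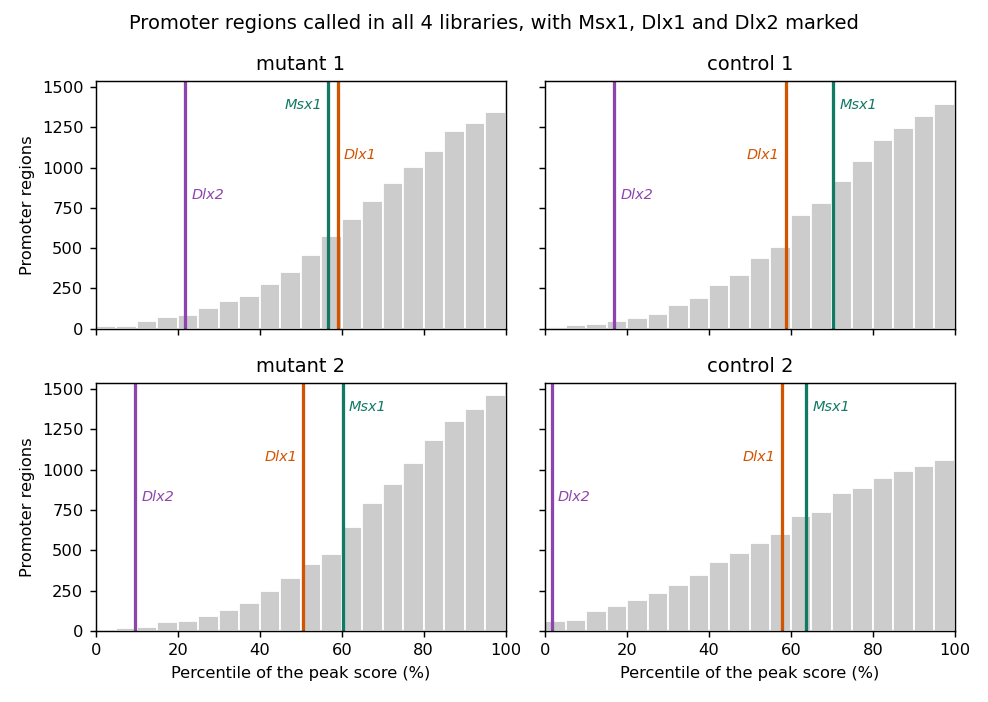
Number of promoter regions (y axis) by percentile of the peak score (x axis, bins of 5) in each library, for the 10727 promoter regions called in all 4 libraries. Lines mark Msx1, Dlx1 and Dlx2. Dlx2 sits in the lower tail of each library, and Msx1 and Dlx1 lie between 50.7 and 70.3.

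The pair had 3 distal regions, all nearest to Dlx2. One 34.5 kb away (71580889 to 71581621) had a percentile of 0.445 in mutant 2 and 40.1 in control 1. Those at 52.2 kb and 82.8 kb were called in mutant 1 alone, at 19.9, and in mutant 2 alone, at 23.0. The last was the farthest region taken in. The nearest one left out by the 100 kb limit lay 109 kb from Dlx2 and was called in mutant 2 and control 2, at percentiles 5.82 and 15.2.

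Dlx5 and Dlx6, the pair of the lower jaw, had 7 regions, more than the 5 of Dlx1 and Dlx2, but 0 were called in all libraries. Peaks at this pair numbered 1 and 5 in the mutants and 5 and 2 in the controls. The numbers thus differed within each genotype. Peaks at Dlx1 and Dlx2 numbered 3 and 4 in the mutants and 3 and 2 in the controls.

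Dlx5, expressed in the medial mesenchyme of the mouse palate, spans 6877801 to 6882068 on chromosome 6. The region at its outer end (6881399 to 6882449) was called in mutant 2, at percentile 53.7, and in control 2, at 1.18. A region 33.2 kb away (6914928 to 6915645) was called in mutant 2 at 27.9 and in the controls at 44.9 and 16.0. One 3.09 kb away was called in control 1 alone, at 6.47. Mutant 1 listed 0 peaks for Dlx5, and 5 numbered peaks had been removed from the 91.3 kb stretch it left there.

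Dlx6 spans 6863334 to 6867970. The region at its outer end (6863303 to 6864270) had percentiles of 32.7 and 15.4 in the mutants and 8.02 in control 1, and no listed peak in control 2. It overlaps Dlx6os1 and Dlx6os2, both noncoding RNA genes of the locus. A region 32.7 kb away, also inside Dlx6os1, was called in mutant 2 at 15.7 and in control 1 at 26.3. Those at 61.4 kb and 68.8 kb were called in mutant 2 alone, at 13.6, and in control 1 alone, at 38.2.

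Dlx3 and Dlx4 had 0 regions, whereas 68% of protein-coding genes had at least 1. The pair lies on chromosome 11, with Dlx3 at 95120117 to 95125296 and Dlx4 at 95140447 to 95146294. The stretch without any listed peak was 133 kb long. It ended 42.8 kb from the pair at a region of Itga3, an integrin gene, called in mutant 2 (12.5) and control 2 (1.31). On the other side it ended 63.9 kb away at a region nearest to Tac4, called in the mutants at 47.3 and 52.5 and in control 1 at 30.8. Peaks had been removed here too, 12 and 11 in the mutants and 16 and 11 in the controls, so an absence of weak peaks was not shown.

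The intervals between paired genes, where shared Dlx enhancers are known, held 0 regions at each pair. They measured 9.43 kb between Dlx1 and Dlx2, 15.2 kb between Dlx3 and Dlx4 and 9.83 kb between Dlx6 and Dlx5. The start sites of Dlx1 and Dlx2 lie on the outer side of the pair, and so did the promoter regions of Dlx5 and Dlx6. Where the pairs had listed peaks, these were therefore at the outer ends or beyond them. Since peaks were taken out of the lists, an absence of open DNA between the genes was not shown. The 2 pairs with regions differed in that both promoters of Dlx1 and Dlx2 were held by all libraries, and those of Dlx5 and Dlx6 by 2 and 3 libraries.

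Other genes around the Msx and Dlx genes were taken from a list of 25, made of bone morphogenetic protein and endothelin signalling genes with known targets and partners. All 25 had at least 1 region, with 111 in total and a median of 4 per gene, against 2.5 for the 8 members and 1 for all protein-coding genes. Of the 111 regions 39 (35.1%) were in all libraries, against 47.4% of all regions. Mutant-only regions numbered 6 (5.41%), among them 1 each at Bmp2, Id2, Lhx8, Pitx1 and Runx2. A control-only region (1 of 111, 0.901%) lay inside Mef2c, a transcription factor gene acting in endothelin signalling, at percentiles 24.9 and 9.72 in the controls. Both shares lay near those over all regions (4.47% mutant-only and 1.07% control-only).

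The mutant-only regions of this list were all distal. The one 31.8 kb from Pitx1, a homeobox gene of the lower jaw, lay at percentiles 18.4 and 50.7 in the mutants. That 93.2 kb from Id2, an inhibitor of basic helix-loop-helix factors, lay at 29.5 and 30.7, and that 43.2 kb from Lhx8, a LIM homeobox gene, at 15.4 and 16.4. Those inside Runx2, a regulator of osteoblasts, and Bmp2, a bone morphogenetic protein, lay at 14.8 and 34.7 and at 10.9 and 5.20. The genes with the most regions in all libraries were Mef2c with 7 and Id1 with 4, followed by Bmp7, Id2, Id3 and Runx2 with 3 each. Among the 39 shared regions 12 (30.8%) had both mutants above both controls and 3 (7.69%) the reverse, near the 29.1% and 5.62% of all shared regions, which moved to 17.3% and 18% at equal peak numbers.

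The lists were also read at marker genes of the sorted tissue and of other cell types. All 9 palatal mesenchyme markers had a region, but 4 of them (Twist1, Osr2, Pax9 and Meox2) had a promoter region in all libraries, and Prrx1, Prrx2, Pdgfra, Barx1 and Shox2 did not. Over all protein-coding genes 48.4% had one. Promoter regions in all libraries were also present at Epcam and Cdh1 of 6 epithelial markers, at Kdr of 4 endothelial, at Spi1 of 4 blood and at 0 of 3 skeletal muscle markers. Presence of a call at these genes thus does not measure purity, and the part of other cells in the values above was not tested.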

How the data were processed

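Peak lists of 4 ATAC-seq libraries, 2 mutant and 2 control, were analysed. Samples were grouped by their titles and genotypes. Per the submitters' processing notes the genome build was mm10. The sources used here name no aligner or peak caller and do not say whether the transposase offset was corrected. The authors' deposited score was the whole part of 10 times the deposited −log10 p in all but 2 of the used rows of mutant 1 and 3 of control 2. The authors' fold enrichment (a ratio) and −log10 q were read from their place in the narrowPeak layout, and the background of the fold is not given. These are values of single peaks and served to rank or describe them within a library. Read depth is unknown.

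Peaks on chromosomes 1 to 19 and X were used, which left out 7 to 14 peaks per list. Percentiles are ranks of the score among the used peaks of a library, and a region takes its highest peak. Genes and promoter windows came from RefSeq tables of GRCm38.p6, with 21631 protein-coding genes and no strand in the gene table. Motifs were searched in promoter windows and not in regions, since no genome sequence was used. Python 3.11.15 and pandas 2.3.3 were used, and merging was checked against bedtools 2.31.1 and tested on simulated data. The members and gene lists were chosen with earlier results of these data known. Named genes were the 8 members, list genes with a genotype-specific region and those with the most shared regions; 0 members had the 5 regions set as the minimum for naming genes with a like pattern. Some genes of the lists are not reported here. Comparisons between genotypes are descriptions without a test. In all 11 other settings were tried and 1 was added later; they changed the peaks used, merging, the overlap needed, distances, the ranking column and the libraries.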

Additional observations from a re-analysis of the deposited data

How the results depend on the processing

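The 7 counts reported for these genes were recomputed under each alternative that could change them. They stayed within 1.5 times the reported value in 56 cases and moved in 17. The upper 50% of each list left 4 regions, 3 of them promoters. With assignment within 50 kb the distal region of Msx1 dropped out, so regions with both mutants higher numbered 0. Counting every region within 100 kb of a member, chosen after the data were seen, gave 32 regions, 8 in all libraries, 3 of these with both mutants higher.

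Leaving out a library leaves 1 in its genotype, which gains genotype-specific regions by construction. Over the 4 such settings mutant-only regions ran from 1 to 2 (6.34% to 14.7% of all regions) and control-only regions from 0 to 4, the highest without control 2 (2.61% to 8.45% of all regions). Shared regions with the mutants higher ran from 1 to 3 (34.1% to 70.9% of all shared regions) and with the controls higher from 1 to 2 (8.99% to 32.1%), member regions from 14 to 18 and those in all libraries from 4 to 6. In each of these settings the Msx1 promoter was lower in the mutants and its distal region higher in the mutants than in the controls. That outcome was fixed in advance and adds no support. Percentiles are ranked within a library, and the genotypes did not overlap at either region. The directions were also the same with equal peak numbers, the upper 50%, other merging and ranking by fold enrichment, all from the same 4 libraries. No paired analysis was possible because the results come from no test. The unknown read depth limits every call.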
